A study of Mus musculus with 16 samples.

Results

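The NF-kB subunits are the 5 transcription factors Rel, Rela, Relb, Nfkb1 and Nfkb2. They were taken by gene symbol from a table of 14925 genes, and all 5 of them had reads in every library. Their mRNAs were measured by sequencing RNA immunoprecipitates (RIP-seq) of mouse BMDMs, that is, macrophages differentiated from bone marrow with M-CSF. The experiment asked which mRNAs associate with CPEB4, an RNA-binding protein that binds U-rich 3′-UTR motifs known as cytoplasmic polyadenylation elements (CPEs). Samples numbered 76 were wild-type (WT) and samples numbered 73 were CPEB4 KO (a total knockout, labelled KO here), and the labels do not say whether the number stands for an animal or a culture. The BMDMs of both genotypes, of the strain labelled C57BL/6J 129, were either left untreated or given 10 ng/ml lipopolysaccharide (LPS), a component of the bacterial cell wall, for 9 h. From each, RNA precipitated with an anti-CPEB4 antibody after formaldehyde crosslinking (RIP) and RNA of the lysate (Input, depleted of ribosomal RNA) were sequenced. The KO is described as lacking CPEB4, so the KO RIP is the background of the antibody and beads. Each library was run on lanes 7 and 8, and the deposited tables hold the sum of both lanes. There was therefore 1 library per genotype, treatment and assay, no difference below has a replicate check, and no p-value is given. All intervals are 95% intervals that cover counting error only.

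NF-kB subunits act as dimers. Rel, Rela and Relb carry a transactivation domain, whereas Nfkb1 and Nfkb2 encode long precursors that are processed into DNA-binding subunits without such a domain. In resting macrophages the dimers are held in the cytoplasm by IkB proteins, and LPS signalling through TLR4 and the IkB kinases releases them. Several subunits and inhibitors are themselves transcribed in response to NF-kB.

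The libraries held from 467696 to 2492300 reads over 3′-UTRs with a gene symbol, and the KO RIPs were the smallest, with 467696 (untreated) and 871482 (LPS). Those reads came to 46.4% to 51.1% of the library total in the Inputs, 48.9% and 70.1% in the WT RIPs, and 27.3% and 31.8% in the KO RIPs. CPM below stands for reads per 1000000 of these 3′-UTR reads. Reads of Cpeb4, the targeted gene, were 121 and 258 in the WT Inputs (untreated and LPS) and 69 and 79 in the KO Inputs, against 1392 and 1920 in the WT RIPs and 120 and 320 in the KO RIPs. Cpeb4 was thus lower in CPM in each KO library than in its WT counterpart, though not without reads in the KO. Against its own Input, Cpeb4 had a log2 RIP ratio of 2.67 untreated and 2.50 after LPS for WT cells. For KO cells this ratio was 2.29 and 2.79. The WT over KO RIP ratio, less that of the Inputs, was 0.38 (-0.12 to 0.88) untreated and -0.29 (-0.69 to 0.11) after LPS. Scaled to 3′-UTR reads, both values were within counting error of 0. On library totals the RIP over Input ratios were 2.73 and 3.01 for WT cells, against 1.53 and 2.11 for KO cells. The 10 macrophage markers summed to between 2603 and 3581 CPM in the Inputs. Markers of T cells came to at most 9.05 CPM there, of B cells 5.38, of dendritic cells 2.15, and of neutrophils and fibroblasts 0.527.

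The 3′-UTR regions that were counted differed in length and in sequence. Nfkb1 had a region of 771 bases (mm10 chr3:135584745-135585515, minus strand), Rel one of 751 bases (chr11:23741514-23742264, minus), Rela 714 bases (chr19:5647417-5648130, plus), Relb 336 bases (chr7:19606217-19606552, minus) and Nfkb2 196 bases (chr19:46311895-46312090, plus). Each lies inside an exon of its gene in GENCODE M21 of the same build. The Rel region is short of the full 3′-UTR, as the transcript goes on for another 4667 bases in GENCODE M21 and its 3′-UTR there measures 5418 bases. The Nfkb1 region stops 90 bases before the annotated end of the gene, and that of Nfkb2 stops 295 bases before it. The regions of Rela and Relb reach that end. In GENCODE M21 the 3′-UTR of the Nfkb2 transcript that was counted measures 128 bases and ends inside the region. The Nfkb1 region begins upstream of the 700-base 3′-UTR of another transcript. No other gene of GENCODE M21 overlaps the regions of Rel, Rela, Relb and Nfkb1, and the last 4 bases of the Nfkb2 region lie inside Psd on the opposite strand.

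The CPE content of these regions was read from the GRCm38 sequence, on the sense strand. The consensus forms searched were UUUUAU and the longer form UUUUAAU. The non-consensus forms searched were UUUUAAAU and UUUUAAGU, as well as UUUUACU, then the C-A form UUUUCAU, and last the G form UUUUGU. None of these forms contains another, and 52.0% of all 14925 regions hold UUUUAU. The Nfkb1 region held 4 CPEs, 2 of them of consensus form, and 21.9% of the 1840 regions within 20% of its length held at least as many. Rel and Rela held 1 each, where 76.0% and 74.3% of regions of like length held any. Relb and Nfkb2 held none, where 49.6% and 32.9% held any. The sites are shown with their flanks as DNA letters, 5′ to 3′ on the sense strand, because they are the sequences by which CPEB proteins bind, and the capitals mark the motif.
Nfkb1 UUUUAAAU, chr3:135584915-135584940: aaaacatatTTTTAAATgagtacctt
Nfkb1 UUUUAAU, chr3:135584870-135584894: catttctttTTTTAATgtggtttat
Nfkb1 UUUUAU, chr3:135584773-135584796: ttttccccgTTTTATgcattttac
Nfkb1 UUUUACU, chr3:135584763-135584787: ttttatgcaTTTTACTattgtaaat
Rel UUUUAU, chr11:23741857-23741880: tatttaggcTTTTATctttaaagt
Rela UUUUACU, chr19:5647539-5647563: ggcggcacgTTTTACTctttatctc

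The last pair of Nfkb1 sites lies next to each other, 37 and 27 bases before the end of the region. The single Rel site lies 352 bases and the Rela site 576 bases before the end of theirs. In the longer 3′-UTR that GENCODE M21 gives for Rel, 20 CPEs were found, 7 of consensus form and 10 of the form UUUUGU. Reads beyond the counted region of Rel were not part of the tables and were not analysed here. The deposited CPE predictions, which also weigh the distance to the polyadenylation signal, listed a prediction for Nfkb1 alone among the 5 genes. Of the 5166 genes with at least 200 reads over the libraries, 43.1% had one. The Nfkb1 region used was predicted for repression alone. The 700-base and 751-base regions of other Nfkb1 transcripts were predicted for both activation and repression.

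The polyadenylation signal is shown for comparison for Relb and Nfkb2, which hold no CPE, and for Rel. It lies close to the end in Relb, as in Rela, where 19 and 15 bases follow it, and 95 bases before the end of the counted region in Nfkb2.
Relb AAUAAA, chr7:19606227-19606250: agttttcccAATAAAaattagttt
Nfkb2 AAUAAA, chr19:46311981-46312004: ggtgggtcaAATAAAggggaagac
Rel AAUAAA, chr11:23742009-23742032: ccattgggaAATAAActcattatt

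In Rel the only signal of the region lies 504 bases before its end. AUUUA, the core of AU-rich elements, which bind mRNA decay factors such as TTP, occurred 3 times in Nfkb1, 2 times in Rel, once in Nfkb2 and not in Rela or Relb. At least as many were held by 17.1% of regions of like length for Nfkb1, 32.7% for Rel and 23.8% for Nfkb2. The regions of Rela (55.0% G and C), Nfkb2 (54.1%) and Relb (50.9%) were richer in G and C than those of Nfkb1 (43.8%) and Rel (35.4%).

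Before LPS, Rela was the most abundant of the 5 mRNAs in both genotypes. Rela encodes the main transactivating partner of the classical NF-kB dimer. It had 131 reads in the untreated WT Input, 195 in the untreated KO Input, 336 in the WT Input after LPS and 226 in the KO Input after LPS. As CPM per kilobase of region (the per-length level), this was 197 (165 to 234) in untreated WT cells and 206 (178 to 237) in untreated KO cells. After LPS the per-length levels were 248 (222 to 276) and 211 (184 to 240). Rela thus changed little between the 4 Inputs. In untreated cells its per-length level was above those of Nfkb1, at 64.2 in the WT and 63.6 in the KO, and the intervals did not overlap. Relb, Nfkb2 and Rel followed in this order in both untreated Inputs, each with an interval that overlapped its neighbour's.

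LPS changed this order. Nfkb2, which encodes the precursor of the alternative pathway, had 4 reads in the untreated WT Input and 129 after LPS, and 9 and 86 in the KO. Its per-length level went from 22.0 (5.99 to 56.2) to 347 (290 to 412) in the WT and from 34.6 (15.8 to 65.7) to 292 (234 to 361) in the KO. After LPS it stood first among the subunits in both genotypes, with an interval apart from that of Rela in the WT and overlapping it in the KO. Its share of the summed per-length levels of the 5 subunits went from 6.51% to 38.7% in the WT, while that of Rela went from 58.5% to 27.7%. In bulk RNA, a change in the cells that express a gene and a change in its RNA per cell cannot be told apart.

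**Figure D1:**
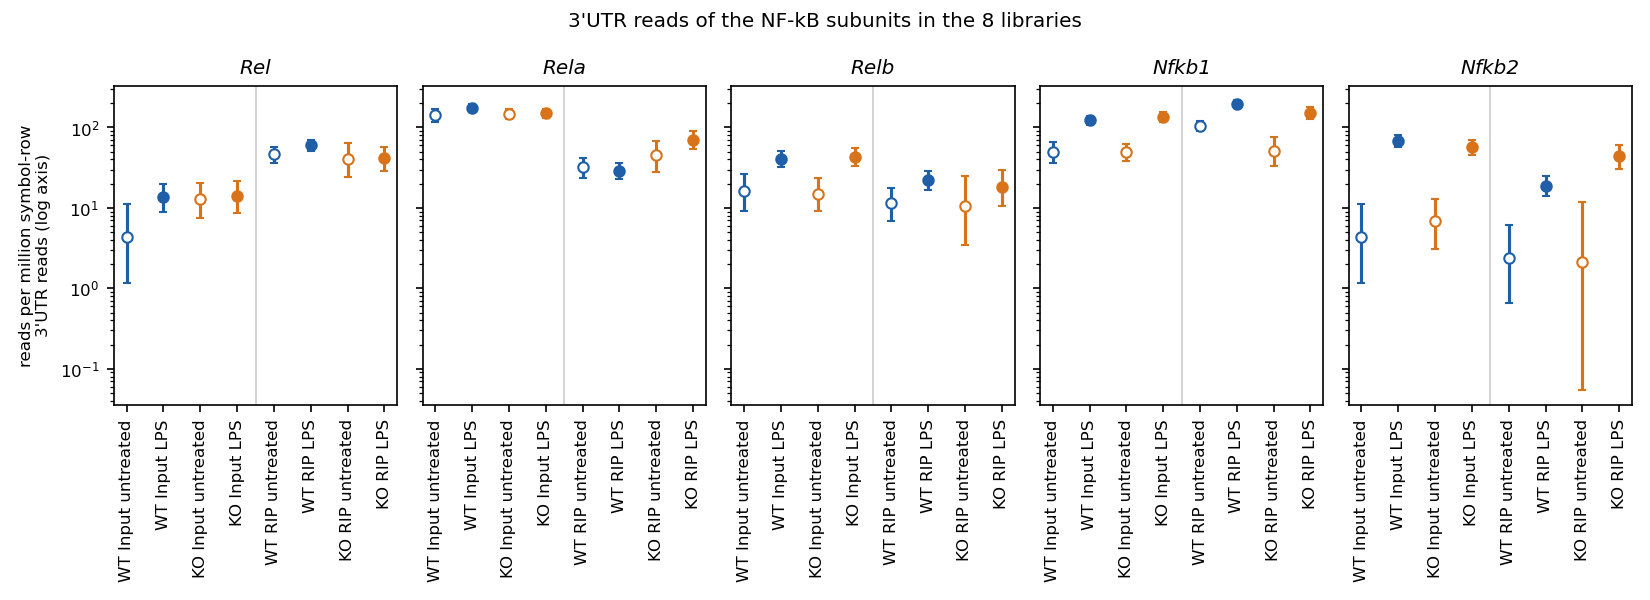
CPM of each NF-kB subunit (log axis) in the 8 libraries, 1 point per library with its 95% exact Poisson interval. Blue is WT, orange is KO, open points are untreated and filled points are LPS, and the grey line parts Inputs from RIPs. Rela is high in the Inputs and low in the RIPs, Rel the reverse, and Nfkb2 is higher after LPS in all 4 pairs.

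The log2 ratio of the LPS over the untreated Input was past 1 (2-fold) for 4 of the 5 subunits in the WT, where 15% of the 6872 genes with at least 20 reads in the pair were that high, and for 3 of 5 in the KO, where 13.7% were. Rel and Nfkb2, with 4 untreated reads each in the WT, reached that minimum only through their LPS reads. Nfkb2, with 9 untreated reads in the KO, did so there as well. The WT calls of Rel and Nfkb2 and the KO call of Nfkb2 are thus partly set by the minimum. Ratios were scaled to the 3′-UTR reads with 1 read added to each library. The members' median was 1.29 in the WT and 1.45 in the KO, beside -0.06 and -0.16 over all genes. Nfkb2 had the largest ratio, 3.67 (2.38 to 4.96) in WT cells and 2.94 (2.0 to 3.88) in KO cells, or 12.7-fold and 7.68-fold. Its ratio exceeded that of Nfkb1 by 2.38 (1.01 to 3.74) in WT cells and by 1.49 (0.46 to 2.51) in KO cells, a difference that does not depend on the scaling.

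Nfkb1 encodes the precursor of the classical pathway and Relb the transactivating partner of the Nfkb2 product. Nfkb1 had 46 and 234 reads in the WT Inputs (untreated and LPS) and 65 and 204 in the KO Inputs. Relb had 15 and 78 (WT) and 20 and 65 (KO). Both were more than 2-fold higher after LPS in both genotypes. The log2 ratio was 1.29 (0.84 to 1.74) in WT cells and 1.45 (1.05 to 1.86) in KO cells for Nfkb1, and 1.27 (0.50 to 2.05) and 1.47 (0.76 to 2.18) for Relb.

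Rela had a log2 ratio of 0.32 (0.03 to 0.61) in WT cells and 0.03 (-0.24 to 0.31) in KO cells, so that it stayed within 2-fold in both. Rel, the subunit known for its part in cytokine genes of lymphoid and myeloid cells, was the least read of the 5 after LPS, with per-length levels of 18.2 in the WT and 18.6 in the KO Input. WT cells had 4 reads untreated and 26 after LPS, and KO cells had 17 and 21. Its log2 ratio was 1.4 (0.03 to 2.78) in WT cells and 0.11 (-0.79 to 1.01) in KO cells. The WT value rests on 4 untreated reads, and the difference between the genotypes, 1.29 (-0.35 to 2.94), had an interval that included 0. For the other four members, too, the interval of the difference between the LPS ratios of WT and KO included 0. The differences were 0.73 (-0.87 to 2.33) for Nfkb2, 0.29 (-0.11 to 0.69) for Rela, -0.16 (-0.77 to 0.44) for Nfkb1 and -0.20 (-1.25 to 0.85) for Relb.

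**Figure D2:**
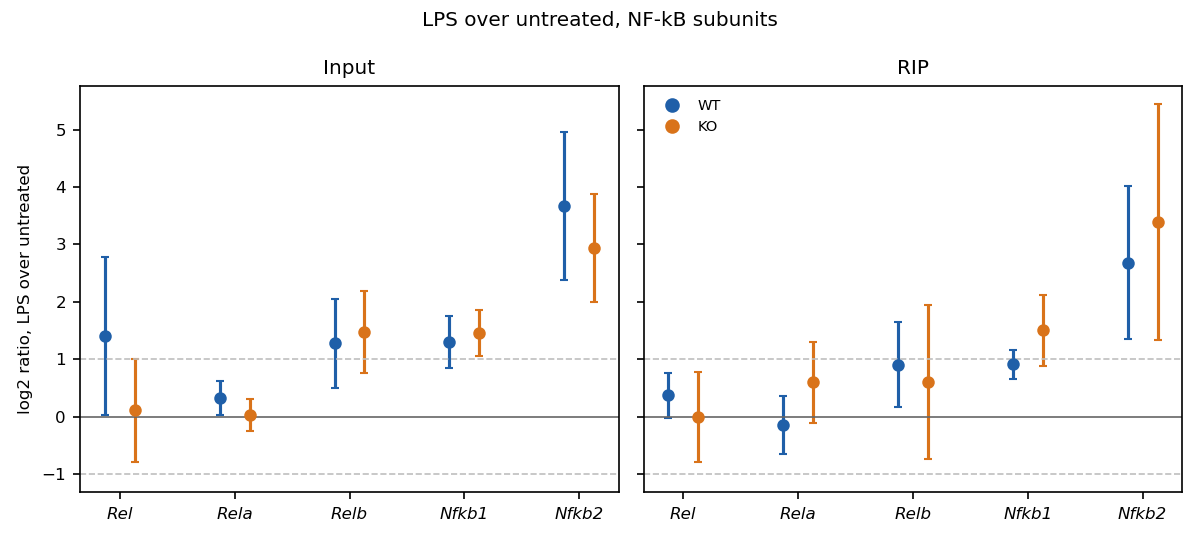
Log2 ratio of LPS over untreated for the 5 subunits in the Inputs (left) and in the RIPs (right), with 95% counting intervals; blue is WT and orange KO, and dashed lines mark 2-fold. Nfkb2 stands highest in all 4 comparisons, from 2.68 to 3.67, and the intervals of WT and KO overlap for each gene in both panels.

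In the RIPs, Nfkb2 had 4 WT reads untreated and 47 after LPS, and 1 and 38 KO reads. Its log2 ratio of LPS over untreated was 2.68 (1.35 to 4.01) in WT cells and 3.39 (1.34 to 5.44) in KO cells. In the WT it was the only member past 2-fold on this scale, where 12.3% of all genes were that high, and in the KO Nfkb1 was the second with 1.50 (0.89 to 2.12), where 14.7% were. Nfkb2 reached the minimum of 20 reads only through its LPS reads in both genotypes. Its calls in the RIPs are therefore partly set by the minimum. The WT ratio of Nfkb1 was 0.91 (0.66 to 1.16). Both Nfkb1 and Relb were past 2-fold in the WT on the other scales, each with 1.19 by the TMM scaling of edgeR and with 1.15 by median of ratios. On library totals these ratios were 1.43 for Nfkb1 and 1.42 for Relb. Relb had 0.90 (0.17 to 1.64) and 0.60 (-0.74 to 1.95), Rel 0.37 (-0.02 to 0.77) and -0.01 (-0.80 to 0.77), and Rela -0.15 (-0.65 to 0.36) and 0.60 (-0.10 to 1.30), in WT and KO. The median of all genes was -0.20 in the WT RIPs and -0.15 in the KO RIPs.

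RIP was compared with Input to see which subunit mRNAs were recovered with the antibody. Rel and Rela, both transactivating subunits, stood at opposite ends. Rel had 77 reads in the untreated WT RIP and 150 in the WT RIP after LPS, against 4 and 26 in the Inputs. The log2 ratio of RIP over Input was 3.12 (1.82 to 4.43) untreated and 2.09 (1.50 to 2.68) after LPS, or 8.70-fold and 4.26-fold. Only 2.04% and 6.66% of all genes had a higher ratio. Rela had 53 and 72 reads in the WT RIPs against 131 and 336 in the Inputs. Its ratio was -2.13 (-2.59 to -1.68) untreated and -2.60 (-2.97 to -2.24) after LPS, which is 4.38-fold and 6.06-fold lower in the RIP. Only 2.91% and 2.66% of all genes were lower.

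Rel lay above Rela in the KO RIPs, the antibody background, too. Rel had 19 and 36 reads in the KO RIPs against 17 and 21 in the Inputs, and ratios of 1.66 (0.74 to 2.57) untreated and 1.54 (0.77 to 2.30) after LPS. Rela had 21 and 61 reads against 195 and 226 in the Inputs, and ratios of -1.65 (-2.29 to -1.02) and -1.09 (-1.49 to -0.68). In the KO, 4.89% of all genes untreated and 6.07% after LPS had a higher ratio than Rel. Below Rela were 2.73% and 9.98%. With library totals in place of 3′-UTR reads the KO ratios of Rel were 0.89 and 0.85, under 2-fold. The gap between Rel and Rela, which scaling does not touch, was 5.25 (3.87 to 6.64) in untreated WT cells and 3.31 (2.19 to 4.42) in untreated KO cells. After LPS it was 4.69 (4.0 to 5.38) and 2.62 (1.76 to 3.48). Rel was thus above Rela in every RIP relative to its Input, and by more log2 units in the WT. The ratios of all genes also spread more widely there. Their standard deviation was 1.35 for untreated WT cells against 0.95 for untreated KO cells. After LPS it was 1.41 against 0.93. Whether the WT gap is larger beyond this wider spread was not tested.

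Nfkb1 had 175 reads in the untreated WT RIP and 494 in the WT RIP after LPS, the most of the 5 in both libraries. Its per-length level there was 136 (117 to 158) and 257 (235 to 281), above the next member with no overlap of the intervals. The RIP over Input ratio was 1.06 (0.60 to 1.53) untreated and 0.68 (0.46 to 0.91) after LPS in the WT. In the KO, where it had 24 and 131 RIP reads, the ratio was 0.10 (-0.56 to 0.77) and 0.15 (-0.16 to 0.47), near the median of all genes (-0.05 and -0.06). On library totals the 2 WT values were 1.13 and 1.20, and the KO values turned negative, to -0.66 and -0.53.

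Relb had 19 and 55 reads in the WT RIPs and 5 and 16 in the KO RIPs. Its ratio lay between -1.17 and -0.30 in the 4 comparisons and passed 2-fold only in the KO after LPS, with -1.17 (-1.94 to -0.40). Nfkb2 had too few reads for a ratio in untreated cells. After LPS its ratio was -1.83 (-2.31 to -1.35) in WT cells and -0.37 (-0.92 to 0.17) in KO cells.

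Counted together, 2 of the 4 members with enough reads were past 2-fold upwards in the untreated WT (Rel and Nfkb1), where 25.5% of all genes were, and 1 was past it downwards (Rela), where 21.1% were. Rel, with 4 Input reads, reached the minimum of 20 reads there only through its RIP reads. Its call in the untreated WT is therefore partly set by the minimum. In the WT after LPS it was 1 of 5 up, where 23.8% of all genes were, and 2 down (Rela and Nfkb2), where 26.3% were. In the KO, Rel was up in both treatments, beside 14.8% and 14.3% of all genes. Rela was down in both and Relb after LPS, beside 12.5% and 12.2%. The members' median in the WT was 0.27 untreated over the 4 with enough reads, -0.52 when Nfkb2 with its 8 reads was included, and -0.89 after LPS over all 5, with members far on both sides.

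**Figure D3:**
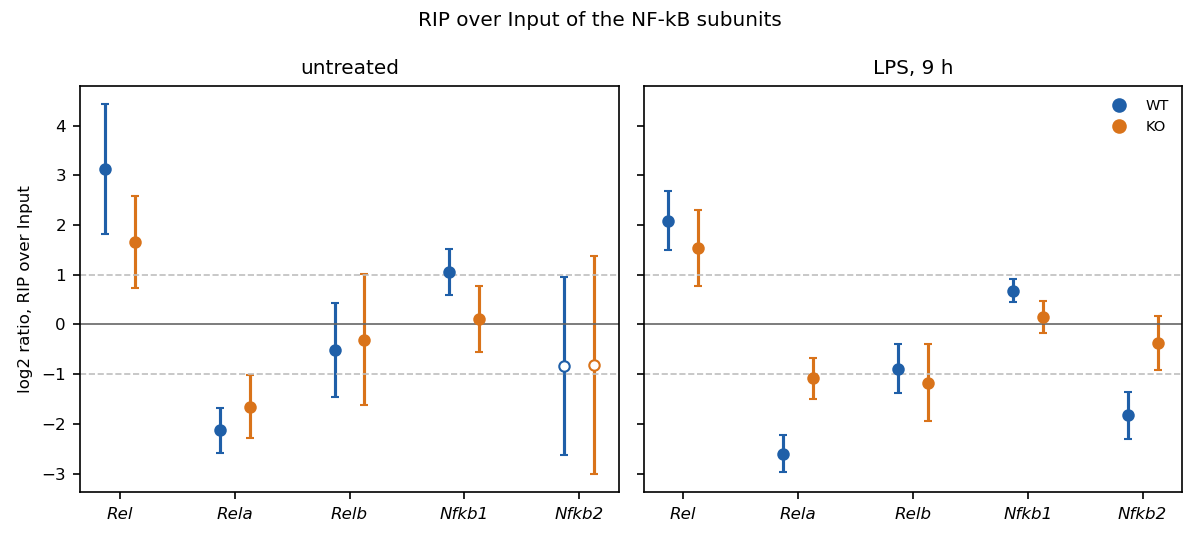
Log2 ratio of RIP over Input for the 5 subunits, untreated (left) and after LPS (right), with 95% counting intervals; blue is WT, orange is KO, open points have fewer than 20 reads in the pair, and dashed lines mark 2-fold. Rel lies above and Rela below the 2-fold lines in all 4 comparisons.

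The authors' MACS peaks were called for each RIP against its Input. They come from the same libraries as the ratios above and are not independent of them. Rel and Nfkb1 each had 1 peak over the counted region in the untreated WT RIP, with scores of 114.15 and 90.47, and 1 in the WT RIP after LPS, with scores of 541.25 and 340.46. Neither had a peak in a KO RIP. Rela, Relb and Nfkb2 had none in any of the 4 RIPs. Of all genes, 6.83% had a peak in the untreated WT RIP, 15.4% in the WT RIP after LPS, and 1.03% and 1.17% in the KO RIPs, which were sequenced less deeply.

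The study's own comparison sets the WT RIP against the KO RIP by a fold change of RPKM, which is scaled to library totals. Here it was also corrected by the same ratio of the Inputs. The sum to which reads are scaled matters for this comparison. Relative to library totals, the median WT over KO ratio of the RIPs of all genes moved up by 0.84 on the log2 scale in untreated cells and by 1.14 after LPS, so both scales are given.

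Nfkb1 was higher in the WT RIP than in the KO RIP on both scales and in both treatments. Its CPM was 105 (90.1 to 122) in WT cells and 51.3 (32.9 to 76.4) in KO cells untreated, and 198 (181 to 216) and 150 (126 to 178) after LPS. The Inputs differed by 0.02 (-0.52 to 0.56) and -0.14 (-0.41 to 0.13). The input-corrected log2 ratio was 0.96 (0.15 to 1.77) untreated and 0.53 (0.14 to 0.92) after LPS, which 15.5% and 25.6% of all genes exceeded. On library totals it was 1.79 (0.98 to 2.60) and 1.73 (1.34 to 2.12).

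Rela was lower in the WT RIP than in the KO RIP after LPS. Its CPM there was 28.9 (22.6 to 36.4) in WT cells and 70.0 (53.5 to 89.9) in KO cells, and the input-corrected ratio was -1.51 (-2.06 to -0.97). On library totals this ratio was -0.32 (-0.86 to 0.23), within counting error of 0. In untreated cells the ratio of Rela was -0.48 (-1.26 to 0.30), and its sign turned with library totals, to 0.35.

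Nfkb2 resembled Rela after LPS. Its RIP reads numbered 47 (WT) and 38 (KO), which is 18.9 (13.9 to 25.1) and 43.6 (30.9 to 59.8) CPM, and an input-corrected ratio of -1.46 (-2.18 to -0.73). On library totals this was -0.26 (-0.99 to 0.46). In untreated cells its 5 RIP reads do not allow a ratio.

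Rel had 46.2 (36.5 to 57.8) CPM in the untreated WT RIP and 40.6 (24.5 to 63.4) CPM in the untreated KO RIP, and 60.2 (50.9 to 70.6) and 41.3 (28.9 to 57.2) after LPS. The RIPs thus differed little on this scale, by 0.13 (-0.58 to 0.84) and 0.51 (-0.01 to 1.03). On library totals, the study's scale, they differed by 0.97 (0.26 to 1.68) and 1.65 (1.14 to 2.17). A rule of the paper calls an mRNA CPEB4-associated by peak score and fold change together. After LPS, Rel was above both cut-offs, with a peak score of 541.25. The untreated score of Rel, 114.15, and both scores of Nfkb1 were below the score cut-off. The paper's other rules use p-values and were not applied. The input-corrected ratio was 1.47 (-0.13 to 3.06) untreated, of which most came from the Inputs (4 WT reads and 17 KO reads), and 0.55 (-0.41 to 1.52) after LPS. On library totals both intervals lay above 0, at 2.30 (0.70 to 3.89) and 1.75 (0.79 to 2.72). Relb had input-corrected ratios of -0.22 (-1.83 to 1.4) and 0.28 (-0.63 to 1.2), and 0.61 (-1.0 to 2.23) and 1.48 (0.57 to 2.39) on library totals.

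Past 2-fold, the uncorrected WT over KO ratio of the RIPs held no member in untreated cells, where 9.85% of all genes were on the WT side and 11% on the KO side. After LPS it held no member on the WT side and Rela and Nfkb2 on the KO side, where 10.2% and 13.8% of all genes were. On library totals the uncorrected ratio after LPS held 3 of the 5 members on the WT side, beside 58.1% of all genes. It held 0 on the KO side, beside 1.05%. Input-corrected and scaled to 3′-UTR reads, the ratio held Rel on the WT side in untreated cells, beside 14.5% of all genes, and none on the KO side, beside 14.2%. After LPS the corrected ratio held Rela and Nfkb2 on the KO side, beside 17.8% of all genes, and none on the WT side, beside 11.3%. On library totals the corrected ratio held Rel and Nfkb1 on the WT side in untreated cells, beside 43.3% of all genes, and Rel, Relb and Nfkb1 after LPS, beside 56.1%. On that scale it held no member on the KO side, beside 2.21% of all genes untreated and 1.62% after LPS.

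The differences between members are the part of this comparison that scaling leaves as it is. After LPS the input-corrected ratio of Nfkb1 exceeded that of Rela by 2.04 (1.38 to 2.71) and that of Nfkb2 by 1.99 (1.17 to 2.81). Rel exceeded Rela by 2.07 (0.96 to 3.18), and Relb exceeded it by 1.79 (0.73 to 2.86). Rel and Nfkb1 differed by 0.02 (-1.01 to 1.06), and Rela and Nfkb2 by -0.05 (-0.96 to 0.85). After LPS the subunits therefore fell into an upper group of Rel, Nfkb1 and Relb and a lower group of Rela and Nfkb2 on any scale. In untreated cells only the gaps of Rela to Nfkb1, 1.44 (0.31 to 2.57), and to Rel, 1.95 (0.17 to 3.72), had intervals apart from 0. Without correction by the Inputs, the gap to Nfkb1 was 1.52 (0.58 to 2.46). That to Rel was 0.67 (-0.34 to 1.67), so most of the corrected gap to Rel came from the Inputs.

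**Figure D4:**
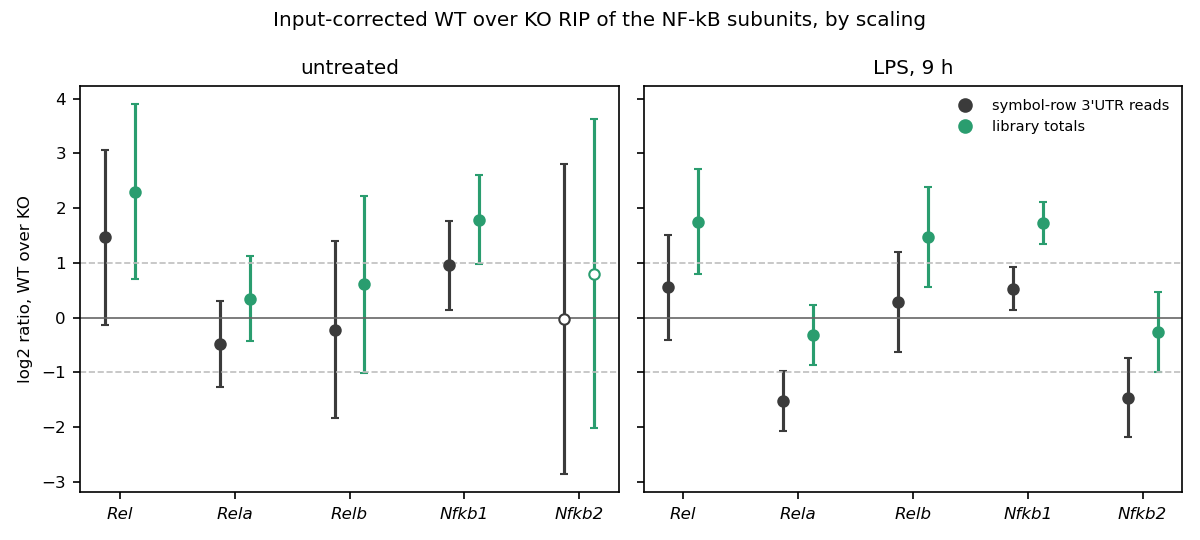
Input-corrected log2 ratio of the WT over the KO RIP for the 5 subunits, untreated (left) and after LPS (right), scaled to 3′-UTR reads with a symbol (dark) or to library totals (green), with 95% counting intervals; open points have fewer than 20 reads in a pair, and dashed lines mark 2-fold. The gap between Rela or Nfkb2 and the other three after LPS is the same on both scales, while the distance from 0 is not.

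The WT and KO Inputs were alike for most members. In untreated cells Rel alone was past 2-fold, with -1.33 (-2.76 to 0.09) on 4 and 17 reads, where 2.75% of all genes were that low and 1.27% as far on the WT side. After LPS no member was, and the ratios ran from -0.14 to 0.24, where 2% of genes were past 2-fold on the WT side and 1.6% on the KO side.

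The regions of Nfkb1 that differ between annotated transcripts overlap and share most reads. The 700-base region, which reaches the annotated end of the gene and holds 7 CPEs, had 170 and 477 reads in the WT RIPs, and the 751-base one had 170 and 483, against 175 and 494 in the region used. A 77-base region without a CPE, which covers the 5′ end of the 700-base one, had 27 and 100. The 3 regions of Relb and the 2 of Nfkb2 had the same reads as the ones used.

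The other genes of the pathway were taken from a list of 76, of which 75 were in the table, by role. Of 67 with at least 20 reads in the WT Inputs, 38 were past 2-fold upwards after LPS and 2 downwards, with a median of 1.37, where 15% of all genes were that high and 15.3% that low. In the KO it was 36 and 3 of 66, where 13.7% and 19.6% were. The genes that NF-kB is known to activate held most of them, with 22 of 24 up in the WT and 21 of 23 in the KO. Many of these had few or no untreated reads and reached 20 reads only through the LPS library. Such a gene could enter only as higher after LPS, so these counts are partly set by the minimum. The median of the target genes was 3.90 in the WT and 3.53 with the 7 genes that had no untreated read set at their lower bound. Il1a, a cytokine, had 0 untreated and 750 LPS reads in the WT Input and was at least 122-fold higher, against 3 untreated reads. Nos2, which makes nitric oxide, had 0 and 598 and was at least 97.6-fold higher.

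Inhibitors followed, with 6 of 11 up in the WT. Nfkbia, which encodes the IkB that holds the classical dimer in the cytoplasm, had 37 untreated and 498 LPS reads in the WT and a log2 ratio of 2.68 (2.21 to 3.16), and 2.78 (2.36 to 3.20) in the KO. Tnfaip3, a ubiquitin-editing enzyme that curbs the pathway, had 3.12 (2.67 to 3.57) and 2.97 (2.58 to 3.37). Of the adaptors 5 of 14 were up, of the receptors 3 of 7 and of the kinases 2 of 11, the last of these close to the 15% of all genes. Among the kinases, Ikbkb had 1.58 (0.99 to 2.17) in the WT, while Chuk, with -0.17 (-1.23 to 0.89), and Map3k14, the kinase that starts Nfkb2 processing, with 0.17 (-0.90 to 1.24), stayed within 2-fold. The lowest ratios were those of Cd83, with -1.73 (-2.37 to -1.10), and of Tlr4, the LPS receptor, with -1.25 (-2.36 to -0.14).

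**Figure D5:**
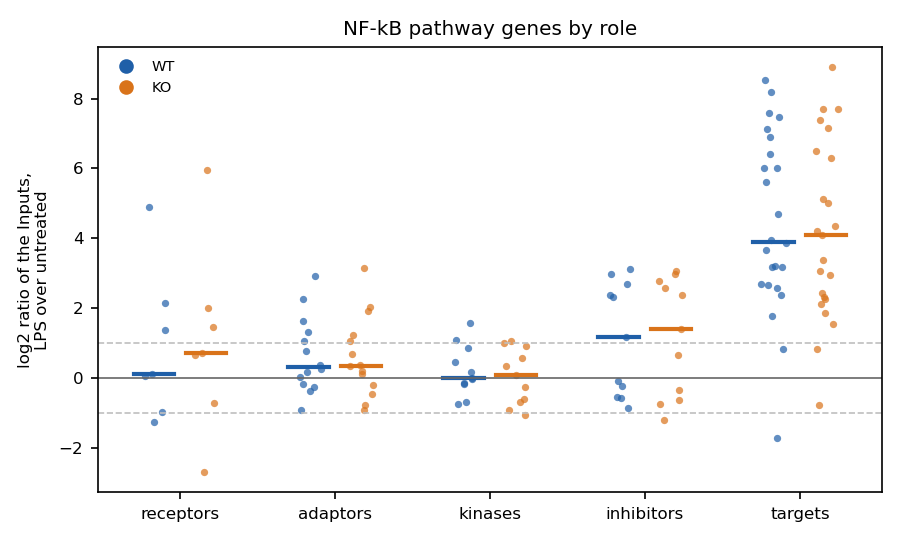
Log2 ratio of the LPS over the untreated Input for NF-kB pathway genes with at least 20 reads in the pair, by role, 1 point per gene; blue is WT, orange is KO, thick lines are medians and dashed lines mark 2-fold. The target genes lie highest, with a median of 3.90 in the WT, and the medians of the kinases lie near 0; values of genes without untreated reads depend on the 1 read added.

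After LPS, and without correction by the Inputs, 9 of 69 pathway genes had RIPs past 2-fold on the WT side, where 10.2% of all genes were, and 8 on the KO side, where 13.8% were. On library totals it was 38 and 0 of 69, where 58.1% and 1.05% of all genes were. Corrected by the Inputs it was 5 and 13 of 65, beside 11.3% and 17.8% of all genes, and on library totals 37 and 0, beside 56.1% and 1.62%. The highest uncorrected ratios were those of Cxcl1, a neutrophil attractant, with 2.60 (1.82 to 3.37), and Ly96, which binds LPS with TLR4, with 2.07 (-0.01 to 4.15) on 23 WT reads and 1 KO read. The Inputs of Cxcl1 differed in the same direction, by 1.58, and its input-corrected ratio was 1.01 (-0.14 to 2.16), while Ly96 had too few Input reads to be corrected. The lowest were Lcn2, an iron-sequestering protein, with -1.64 (-2.17 to -1.11), and Ccl5, a chemokine, with -1.38 (-1.56 to -1.20). Their input-corrected ratios were -1.56 (-2.14 to -0.98) and -1.07 (-1.31 to -0.83), and on library totals -0.36 (-0.94 to 0.22) and 0.13 (-0.11 to 0.37).

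The input-corrected ratio after LPS was -0.10 (-0.34 to 0.13) for Nfkbia, -0.82 (-1.04 to -0.60) for Tnfaip3, -0.88 (-1.36 to -0.40) for Ikbkb and 1.57 (0.58 to 2.56) for Chuk. On library totals all 4 were above 0, at 1.10 (0.86 to 1.33) for Nfkbia, 0.38 (0.16 to 0.60) for Tnfaip3, 0.32 (-0.16 to 0.80) for Ikbkb and 2.76 (1.77 to 3.75) for Chuk. Of these 4 genes, Tnfaip3 and Ikbkb thus changed sign with the scale, as did Nfkbia, and Chuk was past 2-fold on the WT side on both. Of the genes that changed sign, only Tnfaip3 had intervals apart from 0 on both scales.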

How the data were processed

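The authors aligned reads to mm10 with Bowtie2 2.2.2, removed duplicates, counted reads over Ensembl 3′-UTR regions and called peaks with MACS 1.4.2. The 4 deposited tables hold raw read counts, identical in all 4, RPKM values, the number of MACS peaks and their highest score, and region widths. Their columns of fold changes and p-values were not used. The deposited RPKM served only to recover library totals. Of 31117 regions, 495 had no gene symbol (0.902% to 1.04% of reads) and were left out. For each symbol the most-read region was used. Log2 ratios were taken on counts scaled to the column sums with 1 read added, with normal 95% counting intervals (exact Poisson intervals for levels), and a gene counted as past 2-fold with at least 20 reads in the pair. This was tested on simulated data. Input-corrected ratios subtract the log2 ratio of the Inputs. With 1 library per condition no test across samples was run. A model that counts genotypes or assays as replicates of one another was not fitted.

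The members, lists and alternatives were chosen with earlier results of these data known. Named genes were the members, Cpeb4, for each member the 3 genes of most similar profile, Nfkbia, Tnfaip3, Ikbkb, Chuk and Map3k14, and the 2 highest and 2 lowest pathway genes in the WT over KO RIP ratio and in the LPS ratio of the WT Inputs. Alternatives were library totals, TMM (edgeR 4.0.16), median of ratios, 0.1 reads added, other regions, and other minimums and folds. The library kit does not mark strand, so reads of the opposite strand are counted too. Sequences were read from RefSeq's GRCm38.p6. The analysis used Python 3.11.15, pandas 2.3.3 and R 4.3.3.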

Additional observations from a re-analysis of the deposited data

Results flagged for a closer look

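The input-corrected WT over KO ratio of the RIP of Rela was lower after LPS than in untreated cells by an amount beyond counting error. It was -1.51 after LPS and -0.48 untreated, a difference of -1.03 (95% counting interval -1.99 to -0.08). The interval included 0 with TMM, where the difference was -0.94 (-1.89 to 0.01), with median-of-ratios scaling, where it was -0.90 (-1.85 to 0.06), and with library totals, where it was -0.67 (-1.62 to 0.29). The 4 RIP libraries held 53, 72, 21 and 61 reads of Rela, and no replicate bears on the difference.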

How the results depend on the processing

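No called ratio changed sign under any alternative, and 542 of 570 values of the members stayed within their counting interval. Of the 28 that did not, 27 did so with library totals and 1 with TMM. The longest region was the region used for all 5 members, so the 95 values of that alternative could not differ. The mean over distinct regions could differ for Nfkb1 alone. With library totals 68 of 95 values stayed within their interval. With library totals the members' median of RIP over Input after LPS went from -0.89 to -0.38 in the WT and from -0.37 to -1.06 in the KO. Their median WT over KO ratio of the RIPs went from 0.02 to 0.86 untreated over the 4 members with enough reads (-0.10 to 0.75 with Nfkb2) and from 0.20 to 1.34 after LPS, and the median of LPS over untreated in the WT RIPs from 0.90 to 1.42. Over the 12 pairs of libraries, 24 of 56 member ratios were past 2-fold. This was 29 with library totals, 20 with a minimum of 50 reads, and 34 at a log2 ratio of 0.5. TMM raised the median of all genes in the LPS over untreated ratios by 0.14 to 0.28, and no Input ratio of a member changed side of 2-fold with it. No paired analysis was possible because the results come from no test: each genotype, treatment and assay had 1 library, the replicate numbers are its summed lanes, and none could be left out. Depth limits Rel and Nfkb2 most, with 4 reads each in the untreated WT Input.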

Other observations

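For each subunit, its profile of log2 CPM over the 8 libraries, centred on its own mean, was set against those of 2614 or 2615 genes that had 20 reads or more in each of them. The measure of likeness is the root mean square difference on the log2 scale, given as a description. Nfkb1 lay closest to Ggta1 (0.125), Tpm4 (0.184) and Sh3bgrl2 (0.202), and Rela to Aldoa (0.163), Tmem104 (0.169) and Gm20431 (0.183). Relb lay closest to Bak1 (0.191), Map2k1 (0.201) and Slc9a3r1 (0.21), and Rel to Zfand5 (0.236), Med13 (0.287) and Tmem30a (0.288). Nfkb2 had no profile as close, with Ehd1 (0.396), Stard7 (0.484) and Ppp1r12b (0.503) nearest. Among the subunits the nearest pair was Relb and Nfkb1, at 0.688, and the farthest was Rel and Nfkb2, at 2.11.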
